A study of Arabidopsis thaliana with 9 samples.

Results

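Transcripts of 38 nuclear genes for the Calvin cycle and photorespiration were measured in rosette leaves of Arabidopsis thaliana Col-0, out of 33610 genes listed in the deposited counts. They were chosen by locus as enzymes, the rubisco activase and the CP12 regulators of these pathways, 24 for the Calvin cycle and 14 for photorespiration. All plants were wild-type Col-0 grown on soil for 5 to 6 weeks with 8 h of light a day at 22 °C, and rosette leaves were taken, so every value is an average over all leaf cell types. The untreated group (3 libraries) had no treatment, the mock group (3 libraries) was mock treated, and the Alternaria group (3 libraries) was sprayed with 1000000 spores per ml of the fungus Alternaria brassicicola, strain MUCL 20297, in 0.01% of the wetting agent Silwet L-77 and harvested 3 days later. The labels give neither the content of the mock liquid nor a harvest time for mock and untreated plants. They call the libraries of a group biological replicates without saying whether a library pooled several plants.

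In the Calvin cycle, rubisco joins carbon dioxide to ribulose bisphosphate, the product is reduced to triose phosphate, and a series of aldolase, phosphatase, transketolase, isomerase and kinase steps regenerates the acceptor. Rubisco also takes oxygen, and photorespiration recovers the resulting phosphoglycolate through the chloroplast, the peroxisome, where glycolate oxidase makes hydrogen peroxide that catalase removes, and the mitochondrion, where glycine decarboxylase and serine hydroxymethyltransferase make serine, before glycerate returns to the chloroplast. In a green leaf both pathways run in the light in mesophyll cells, and their nuclear genes are among the most abundant messages.

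Between 22713147 and 36061529 reads per library were assigned to genes, and all 38 genes were among the 22019 that passed the low-count filter. Their summed reads made up 7.20% ± 0.171 of all reads assigned to genes in the untreated group, 6.51% ± 0.129 in the mock group and 3.91% ± 0.113 in the Alternaria group (SD, n = 3 libraries each). Levels are given as counts per 1000000 reads in genes after TMM scaling (CPM), with ± as SD over 3 libraries, and changes as log2 with ± as the standard error of the fit. A gene was called where edgeR's quasi-likelihood test gave a Benjamini-Hochberg adjusted p under 0.05 over all 22019 genes. The 3 comparisons share libraries with one another, so their values are set side by side and not counted as separate evidence.

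In Alternaria leaves most genes of both pathways were lower than in mock leaves. Of the 24 Calvin cycle genes 19 were called lower and 2 higher, where 26.1% of all tested genes were called lower and 29.5% higher, and 55.6% were called in either direction. Of the 14 photorespiration genes 12 were called lower and 1 higher. The median log2 change was -0.73 over the Calvin cycle genes and -0.70 over the photorespiration genes, beside -0.02 over all tested genes. A fall of at least 2-fold was called for 8 Calvin cycle and 2 photorespiration genes, where 5.36% of all tested genes reached it. Libraries of the 2 groups did not overlap for 21 and 13 genes, where this held for 63.3% of all genes. Because leaves were measured in bulk, fewer cells of a type and less RNA per cell cannot be told apart.

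The summed level of the 24 Calvin cycle genes was 53387 ± 2161 CPM in untreated leaves, 47239 ± 1401 CPM in mock leaves and 26773 ± 683 CPM in Alternaria leaves. Photorespiration genes summed to 20733 ± 1158, 17971 ± 358 and 11140 ± 669 CPM in the same order. In both sums the Alternaria libraries lay far below the other 6 libraries, and the mock libraries lay below the untreated ones by less. The ratio of the Calvin cycle sum to the photorespiration sum was 2.52 to 2.62 in untreated libraries, 2.58 to 2.67 in mock libraries and 2.30 to 2.53 in Alternaria libraries. The rubisco small subunits and rubisco activase made up most of the Calvin cycle sum, and without them the ratio was 1.01 ± 0.0133, 1.07 ± 0.00733 and 0.981 ± 0.0289.

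**Figure D1:**
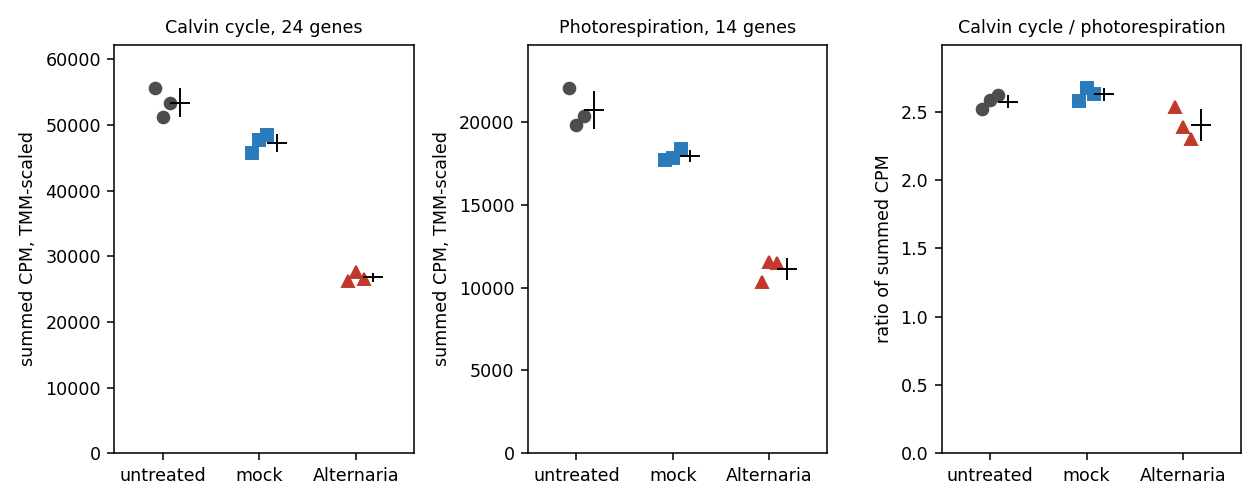
Summed TMM-scaled CPM of the 24 Calvin cycle genes and of the 14 photorespiration genes, and the ratio of the sums, in each of the 9 libraries, with mean and SD over 3 libraries beside them. The Alternaria libraries sat between 26269 and 27550.0 CPM for the Calvin cycle, all below the mock libraries, which began at 45681 CPM. Their ratio, 2.30 to 2.53, lay below that of all mock libraries (2.58 to 2.67) and overlapped that of untreated libraries (2.52 to 2.62).

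Some other features of the libraries also differed between the groups, not always in the direction of these sums. The 3 mesophyll markers (CA1, LHCA1 and LHCB1.1) summed to 14216 to 14998 CPM in untreated, 14272 to 15516 CPM in mock and 7738 to 8380 CPM in Alternaria libraries, and all 3 were called lower in Alternaria than in mock leaves, from -0.59 for LHCB1.1 to -1.55 for CA1 on the log2 scale. The 5 epidermis markers summed to 1822 to 2060.2, 1686 to 1972 and 1156 to 1270.1 CPM, with 4 of 5 called lower. Vascular markers summed to 123 to 144 CPM in untreated, 91.0 to 106 CPM in mock and 108 to 118 CPM in Alternaria libraries, with 2 of 5 called lower and 1 higher in Alternaria against mock. Guard cell markers summed to 94.0 to 108, 85.55 to 86.6 and 79.6 to 85.8 CPM, with 2 of 5 called lower and 1 higher. These marker counts stand beside 26.1% of all tested genes called lower and 29.5% called higher in Alternaria against mock. Root markers summed to 44.1 to 127 CPM and flower markers to 2.75 to 6.47 CPM over the 9 libraries, and no marker was at 0 in every library. Reads of the plastid chromosome made up 4.66 to 5.97% of untreated, 3.51 to 4.34% of mock and 2.66 to 3.22% of Alternaria libraries. The part of these shifts in the results was not tested.

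**Figure D2:**
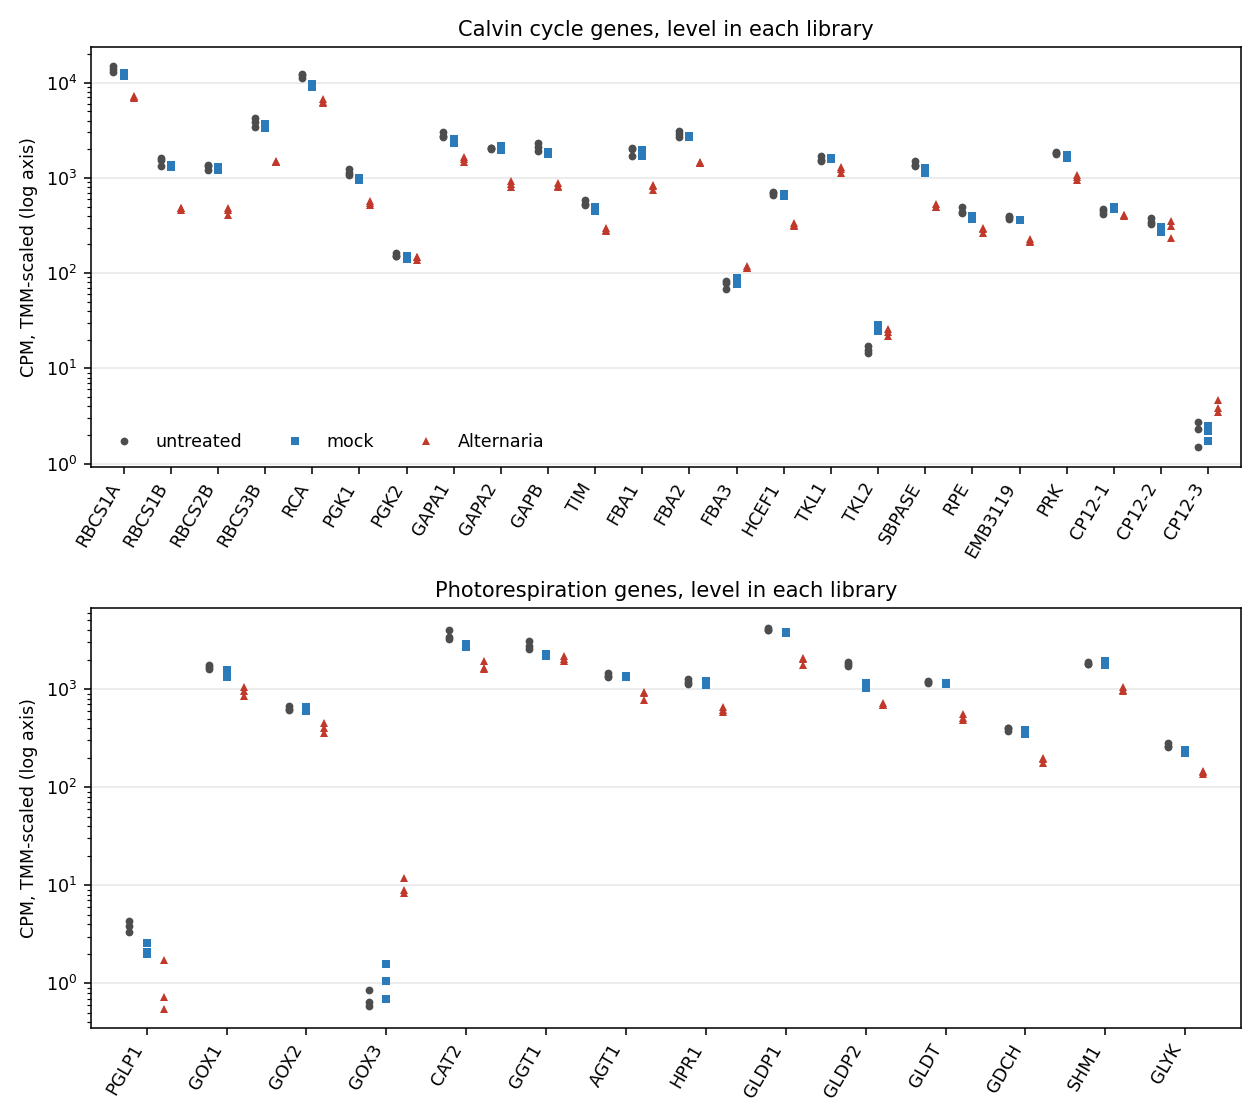
TMM-scaled CPM on a log axis for every Calvin cycle gene (top) and photorespiration gene (bottom), with one point per library and 3 libraries per group. For most genes the Alternaria triangles lie below the other 6 points, while GOX3, CP12-3 and FBA3 have their Alternaria libraries on top.

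Rubisco's small subunit is encoded by 4 genes. RBCS1A (AT1G67090) lies on chromosome 1 (chr1:25048158-25049667, minus strand, TAIR10.1), and RBCS3B, RBCS2B and RBCS1B follow each other on the minus strand of chromosome 5 (chr5:15376988-15378642, chr5:15380907-15382071 and chr5:15383167-15385320). Their coding sequences are so alike that reads can match more than one: RBCS1B and RBCS2B are identical at 97.25% of aligned bases and RBCS1A and RBCS1B at 89.93%. Of the 50-base words of each gene's longest transcript, 1.48% of RBCS1A, 14% of RBCS1B, 21.4% of RBCS2B and 18.3% of RBCS3B also occur in another gene, so values of the 3 genes on chromosome 5 carry some uncertainty of assignment. The first 90 coding bases show how few positions separate them; they are from RefSeq (TAIR10.1), read 5′ to 3′, with capitals where a gene differs from RBCS1B (16 positions in RBCS1A, 5 in RBCS2B and 5 in RBCS3B).
RBCS1A: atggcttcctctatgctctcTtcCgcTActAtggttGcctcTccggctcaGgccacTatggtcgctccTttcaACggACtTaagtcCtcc
RBCS1B: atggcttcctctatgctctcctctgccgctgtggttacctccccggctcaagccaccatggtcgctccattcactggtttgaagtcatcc
RBCS2B: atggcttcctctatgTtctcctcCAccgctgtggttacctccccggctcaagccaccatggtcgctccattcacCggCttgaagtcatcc
RBCS3B: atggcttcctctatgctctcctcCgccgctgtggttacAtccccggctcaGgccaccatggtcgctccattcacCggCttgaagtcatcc

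All 4 small subunit genes fell in Alternaria leaves, the 3 on chromosome 5 furthest, where 26.1% of all tested genes were called lower than in mock. RBCS1A stood at 14822, 12974 and 14089 CPM in the untreated libraries, 11852, 12504 and 12677 in the mock libraries and 7237, 6935 and 7068 in the Alternaria libraries. Its groups did not overlap between Alternaria and mock, and it fell 1.74-fold (-0.80 ± 0.075 log2; edgeR, adjusted p = 1.63e-06). RBCS2B (AT5G38420) stood at 1321, 1204 and 1359 CPM in the untreated libraries, 1211, 1279 and 1295 in the mock libraries and 409, 479 and 455 in the Alternaria libraries. All Alternaria libraries were well below every other library, a fall of 2.82-fold (-1.50 ± 0.081 log2; edgeR, adjusted p = 2.69e-08). RBCS1B (AT5G38430) stood at 1548, 1334 and 1616 CPM in the untreated libraries, 1295, 1323 and 1369 in the mock libraries and 457, 483 and 482 in the Alternaria libraries. This gene fell 2.803-fold against mock (-1.49 ± 0.081 log2; edgeR, adjusted p = 2.89e-08), with no overlap. RBCS3B (AT5G38410) stood at 3821, 3393 and 4231 CPM in the untreated libraries, 3376, 3658 and 3613 in the mock libraries and 1458, 1499 and 1476 in the Alternaria libraries. Again the Alternaria libraries lay apart, lower by 2.401-fold (-1.26 ± 0.085 log2; edgeR, adjusted p = 1.16e-07).

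RBCS1A, the most abundant of the 4, took a larger share of their summed CPM as the others fell further. That share was 68.9, 68.6 and 66.2% in the untreated libraries, 66.8, 66.6 and 66.9% in the mock libraries and 75.7, 73.8 and 74.5% in the Alternaria libraries. The Alternaria libraries did not overlap with the mock ones (exact permutation test, two-sided p = 0.1, the smallest that 3 against 3 libraries allow). Per base of annotated exon RBCS1A was also the highest of all 38 genes, at 11011 ± 734 TMM-scaled RPKM (reads per kilobase of exon and per 1000000 reads) in untreated and 5584 ± 119 in Alternaria leaves. RCA came next at 5682 ± 279 and 3034 ± 168 RPKM, and RBCS3B followed at 2706 ± 297 and 1048 ± 14.7 RPKM.

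RCA (AT2G39730) encodes rubisco activase, which removes inhibitory sugar phosphates from rubisco's active site. Its level was 12144, 12393 and 11276 CPM in the untreated libraries, 9119.6, 9784 and 9631 in the mock libraries and 6266, 6770.3 and 6088 in the Alternaria libraries. The 3 groups stood in 3 separate steps with no overlap. RCA fell 1.25-fold from untreated to mock (-0.33 ± 0.075 log2; edgeR, adjusted p = 0.00665) and 1.49-fold from mock to Alternaria (-0.58 ± 0.075 log2; edgeR, adjusted p = 2.93e-05). RCA fell less than the small subunits against mock, so the ratio of RCA to summed small subunit CPM was 0.515 ± 0.00667 in mock and 0.673 ± 0.0420 in Alternaria leaves, with no overlap (exact permutation test, two-sided p = 0.1, the smallest possible). In untreated leaves this ratio was 0.583 ± 0.0651. The untreated libraries, at 0.565, 0.656 and 0.530, overlapped with the Alternaria libraries, at 0.642 to 0.721.

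Reduction of phosphoglycerate uses phosphoglycerate kinase (PGK1 and AT1G56190, a phosphoglycerate kinase family gene called PGK2 here) and the chloroplast glyceraldehyde 3-phosphate dehydrogenase, built from A subunits (GAPA1 and GAPA2) and a B subunit (GAPB). Against mock 4 of these 5 genes fell in Alternaria leaves, where 26.1% of all tested genes were called lower. GAPB (AT1G42970) stood at 2330.4, 1899 and 2089 CPM in the untreated libraries, 1800.3, 1824 and 1886 in the mock libraries and 801, 892 and 832 in the Alternaria libraries. It fell 2.18-fold without overlap (-1.13 ± 0.084 log2; edgeR, adjusted p = 2.54e-07). GAPA1 (AT3G26650) stood at 3027, 2670.1 and 2779.6 CPM in the untreated libraries, 2306, 2379 and 2535 in the mock libraries and 1454, 1674 and 1575 in the Alternaria libraries. Its fall was smaller, 1.53-fold (-0.62 ± 0.080 log2; edgeR, adjusted p = 2.70e-05), and again without overlap. The second A subunit gene, GAPA2 (AT1G12900), went from 2034 ± 90.8 CPM in mock to 865 ± 68.9 CPM in Alternaria leaves (-1.23 ± 0.076 log2; edgeR, adjusted p = 6.27e-08). The ratio of GAPA1 to GAPA2 CPM was 1.38 ± 0.0974 in untreated, 1.18 ± 0.0106 in mock and 1.82 ± 0.147 in Alternaria leaves (Alternaria against mock, exact permutation test, two-sided p = 0.1, the smallest possible).

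PGK1 (AT3G12780) fell from 978 ± 26.3 CPM in mock to 548 ± 25.3 CPM in Alternaria leaves (-0.84 ± 0.074 log2; edgeR, adjusted p = 1.01e-06). Its relative PGK2 stood at 162, 152 and 153 CPM in the untreated libraries, 145, 150.1 and 139.5 in the mock libraries and 149, 138 and 149 in the Alternaria libraries. The mock and Alternaria libraries of PGK2 overlapped, and it was not called (0.01 ± 0.066 log2, 95% interval -0.14 to 0.15; edgeR, adjusted p = 0.937). Per base of exon PGK2 was the lesser of the pair, at 74.95 ± 2.72 against 538 ± 14.4 RPKM in mock leaves.

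Regeneration of the acceptor covers 11 genes, of which 9 fell, 1 rose and 1 was not called in Alternaria against mock. Over all tested genes 26.1% were called lower and 29.5% higher in that comparison. SBPASE (AT3G55800) encodes sedoheptulose bisphosphatase, a light-activated step that commits carbon to regeneration. It stood at 1519, 1373 and 1324 CPM in the untreated libraries, 1224, 1127 and 1259 in the mock libraries and 495, 535 and 491 in the Alternaria libraries. Each Alternaria library was below every mock library, a fall of 2.37-fold (-1.25 ± 0.079 log2; edgeR, adjusted p = 7.33e-08). HCEF1 (AT3G54050), the chloroplast fructose bisphosphatase, went from 673 ± 19.3 to 322 ± 10.7 CPM (-1.06 ± 0.066 log2; edgeR, adjusted p = 6.09e-08). PRK (AT1G32060) encodes phosphoribulokinase, which makes ribulose bisphosphate. It stood at 1881, 1769 and 1830.3 CPM in the untreated libraries, 1601, 1711 and 1751 in the mock libraries and 952, 1083 and 1017 in the Alternaria libraries. PRK fell 1.66-fold without overlap (-0.73 ± 0.073 log2; edgeR, adjusted p = 3.00e-06). The isomerase and epimerase genes fell too, TIM (AT2G21170, triose phosphate isomerase) by 0.70 on the log2 scale, EMB3119 (AT3G04790, ribose 5-phosphate isomerase) by 0.74 and RPE (AT5G61410, ribulose phosphate epimerase) by 0.46. For EMB3119, 19.7% of 50-base words are shared with AT3G01505, an annotated antisense RNA that overlaps it, and whether the counting used strand is not stated in the labels.

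The 3 plastid aldolase genes did not move together. FBA1 (AT2G21330) went from 1849.6 ± 145 to 801 ± 49.7 CPM (-1.21 ± 0.093 log2; edgeR, adjusted p = 3.36e-07) and FBA2 (AT4G38970) from 2728 ± 37.6 to 1443 ± 21.5 CPM (-0.92 ± 0.071 log2; edgeR, adjusted p = 3.34e-07). FBA3 (AT2G01140) stood at 82.4, 68.8 and 77.9 CPM in the untreated libraries, 76.7, 89.4 and 77.9 in the mock libraries and 114, 114 and 119.9 in the Alternaria libraries. All its Alternaria libraries were above all others, a rise of 1.43-fold against mock (0.52 ± 0.084 log2; edgeR, adjusted p = 0.000182). FBA3 was the minor member, at 44.5 ± 3.84 RPKM in mock leaves beside 905 ± 71.1 for FBA1 and 1543 ± 21.3 for FBA2.

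Transketolase, which shuffles carbon pairs among sugar phosphates, also has a major and a minor gene. TKL1 (AT3G60750) went from 1601 ± 20.7 to 1223 ± 88.2 CPM (-0.39 ± 0.077 log2; edgeR, adjusted p = 0.00083), one of the smallest falls of the cycle. TKL2 (AT2G45290) stood at 17.2, 15.7 and 14.5 CPM in the untreated libraries, 24.7, 28.8 and 24.5 in the mock libraries and 21.9, 26.01 and 24.2 in the Alternaria libraries. Every untreated library was below every other library, while mock and Alternaria libraries overlapped. TKL2 was 1.65-fold higher in mock than in untreated leaves (0.72 ± 0.099 log2; edgeR, adjusted p = 0.000281) and was not called between Alternaria and mock (-0.11 ± 0.096 log2, 95% interval -0.32 to 0.10; edgeR, adjusted p = 0.341). Its share of the summed CPM of the pair was 0.989% ± 0.0274 in untreated, 1.60% ± 0.134 in mock and 1.93% ± 0.0412 in Alternaria leaves.

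CP12 proteins bind glyceraldehyde 3-phosphate dehydrogenase and phosphoribulokinase into an inactive complex in the dark. CP12-1 (AT2G47400) stood at 446, 422 and 474 CPM in the untreated libraries, 489.6, 485 and 467 in the mock libraries and 411, 395 and 409.6 in the Alternaria libraries. Alternaria libraries were below mock libraries, by 1.19-fold (-0.24 ± 0.067 log2; edgeR, adjusted p = 0.00728), and CP12-1 was not called against untreated leaves (-0.14 ± 0.067 log2; edgeR, adjusted p = 0.0784). CP12-2 (AT3G62410) stood at 344, 379 and 331 CPM in the untreated libraries, 272, 308 and 294 in the mock libraries and 232, 352 and 309.6 in the Alternaria libraries. Its Alternaria libraries were spread across the mock range and beyond it on both sides, and it was not called (0.03 ± 0.12 log2, 95% interval -0.24 to 0.30; edgeR, adjusted p = 0.842). Without Alternaria replicate 1 the CP12-2 change was 0.19 and without replicate 2 it was -0.12. CP12-3 (AT1G76560), far lower than its relatives, stood at 2.32, 1.47 and 2.76 CPM in the untreated libraries, 2.19, 2.45 and 1.73 in the mock libraries and 3.48, 4.699 and 3.803 in the Alternaria libraries. Alternaria libraries were above all others, 1.89-fold against mock (0.92 ± 0.23 log2; edgeR, adjusted p = 0.00442). CP12-3 rests on 45 to 140 reads per library.

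**Figure D3:**
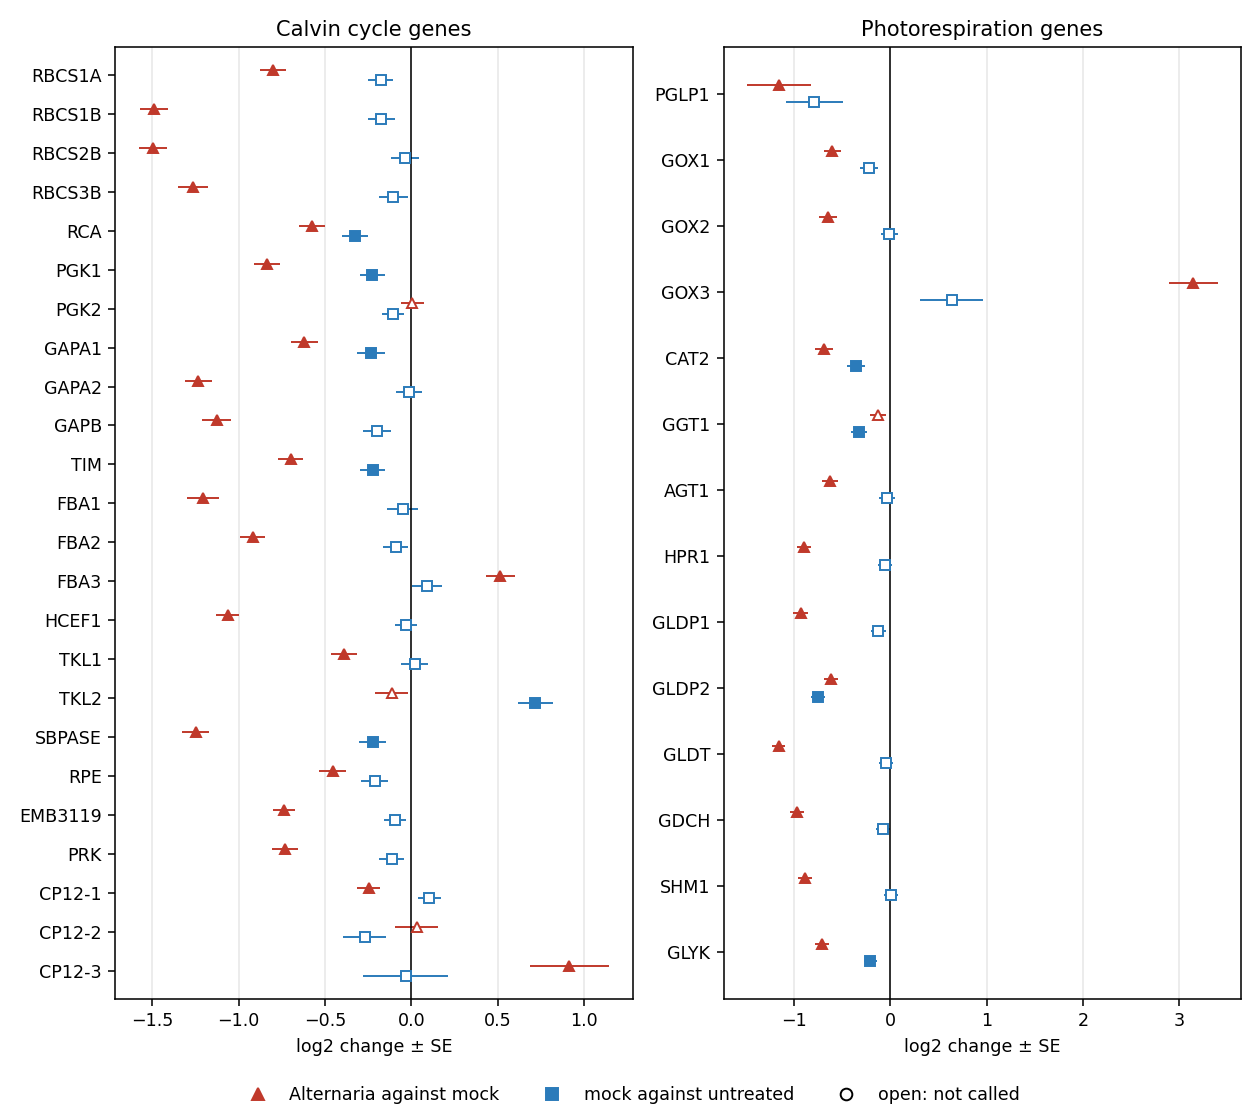
Log2 change with its standard error for each Calvin cycle gene (left) and photorespiration gene (right), Alternaria against mock as triangles and mock against untreated as squares, filled where called. Most triangles lie left of 0 between -0.24 and -1.50, GOX3 stands alone at 3.14, and most squares are open and near 0.

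Photorespiration starts in the chloroplast with phosphoglycolate phosphatase. The listed gene, PGLP1 (AT5G36700), had only 16 to 102 reads per library, with 4.36, 3.34 and 3.804 CPM in untreated, 1.99, 2.06 and 2.56 in mock and 0.7302, 1.71 and 0.553 in Alternaria libraries. Its coding sequence is identical over all 1089 bases to that of AT5G36790, and every 50-base word of its longest transcript occurs there. A read from that transcript matches both genes, so the level of PGLP1 is uncertain. PGLP1 was called lower in Alternaria than in mock leaves (-1.15 ± 0.33 log2; edgeR, adjusted p = 0.00961), between -1.78 and -0.87 with 1 library left out at a time, while its copy had 7 to 20 reads in untreated, 23 to 38 in mock and 11 to 21 in Alternaria libraries. PGLP1 thus had its highest CPM in untreated libraries. In raw reads PGLP1 had 91 to 102 in untreated and 59 to 92 in mock libraries, while its copy had most in mock libraries. Raw reads are not scaled for depth, which was 22713147 to 30902196 in untreated and 28826970 to 36061529 in mock libraries. GLYK (AT1G80380), a glycerate kinase that closes the pathway in the chloroplast, stood at 260.3, 283 and 257 CPM in the untreated libraries, 242, 223 and 230.1 in the mock libraries and 141, 148 and 137 in the Alternaria libraries. The 3 groups formed separate steps, and GLYK fell 1.63-fold against mock (-0.71 ± 0.068 log2; edgeR, adjusted p = 2.23e-06).

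For the peroxisome, the genes listed as glycolate oxidases are GOX1 and GOX2, next to each other on chromosome 3, and GOX3 on chromosome 4. Each is annotated as an aldolase-type TIM barrel family protein, and what the GOX3 enzyme acts on was not measured. GOX1 (AT3G14420) stood at 1768, 1605 and 1677 CPM in the untreated libraries, 1325, 1452 and 1569 in the mock libraries and 855, 1053 and 965 in the Alternaria libraries. GOX2 (AT3G14415) stood at 668, 616 and 619 CPM in the untreated libraries, 598, 641 and 655 in the mock libraries and 353, 456 and 403 in the Alternaria libraries. Both had all Alternaria libraries below all mock libraries, with falls of 1.51-fold for GOX1 (-0.60 ± 0.091 log2; edgeR, adjusted p = 0.000109) and 1.56-fold for GOX2 (-0.64 ± 0.091 log2; edgeR, adjusted p = 5.41e-05). GOX3 (AT4G18360) moved the other way and stood at 0.649, 0.851 and 0.585 CPM in the untreated libraries, 0.692, 1.05 and 1.56 in the mock libraries and 8.37, 9.03 and 11.96 in the Alternaria libraries. It rose 8.84-fold against mock (3.14 ± 0.25 log2; edgeR, adjusted p = 4.40e-07) and 13.8-fold against untreated leaves (3.78 ± 0.28 log2; edgeR, adjusted p = 1.25e-07). Its reads numbered 14 to 26 in untreated, 25 to 56 in mock and 269 to 346 in Alternaria libraries, and no 50-base word of its longest transcript is shared with another gene.

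GOX3 nevertheless stayed a trace beside GOX1 and GOX2. Its share of the summed CPM of the 3 genes was 0.0301% ± 0.00709 in untreated, 0.0521% ± 0.0171 in mock and 0.717% ± 0.138 in Alternaria leaves. Per base of exon GOX3 reached 4.76 ± 0.9298 RPKM in Alternaria leaves beside 506 ± 52.5 for GOX1. The coding sequence of GOX3 is identical to that of GOX1 at 76.33% of aligned bases, whereas GOX1 and GOX2 share 90.91%.

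Catalase removes the hydrogen peroxide that glycolate oxidase makes, and CAT2 is its main leaf gene. CAT2 (AT4G35090) stood at 3966, 3235 and 3401 CPM in the untreated libraries, 2755, 2668 and 2875 in the mock libraries and 1609, 1620.5 and 1932 in the Alternaria libraries. The 3 groups did not overlap, and CAT2 fell 1.28-fold from untreated to mock (-0.35 ± 0.096 log2; edgeR, adjusted p = 0.0158) and 1.61-fold from mock to Alternaria (-0.69 ± 0.096 log2; edgeR, adjusted p = 5.41e-05). CAT3, from the companion list of other photorespiration enzymes, stood at 1308, 1023 and 1051 CPM in the untreated libraries, 1757, 2366 and 2516 in the mock libraries and 4169, 5449.7 and 5135 in the Alternaria libraries. It rose where CAT2 fell, 0.97 ± 0.14 log2 from untreated to mock (edgeR, adjusted p = 0.000444) and 1.15 ± 0.14 log2 from mock to Alternaria (edgeR, adjusted p = 2.06e-05). CAT1 was called higher in Alternaria than in mock leaves, at 52.04 ± 7.64 against 20.2 ± 0.984 CPM (1.36 ± 0.10 log2; edgeR, adjusted p = 2.33e-07).

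The makeup of catalase messages turned over. CAT2 held 75.0, 75.7 and 76.1% of the summed catalase CPM in the untreated libraries, 60.8, 52.8 and 53.1% in the mock libraries and 27.6, 22.8 and 27.1% in the Alternaria libraries. No library of one group overlapped with another group (exact permutation test, two-sided p = 0.1 for each step, the smallest possible). The sum of the 3 genes was 4679 ± 539 CPM in untreated, 4999 ± 443 CPM in mock and 6690.3 ± 752 CPM in Alternaria leaves.

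**Figure D4:**
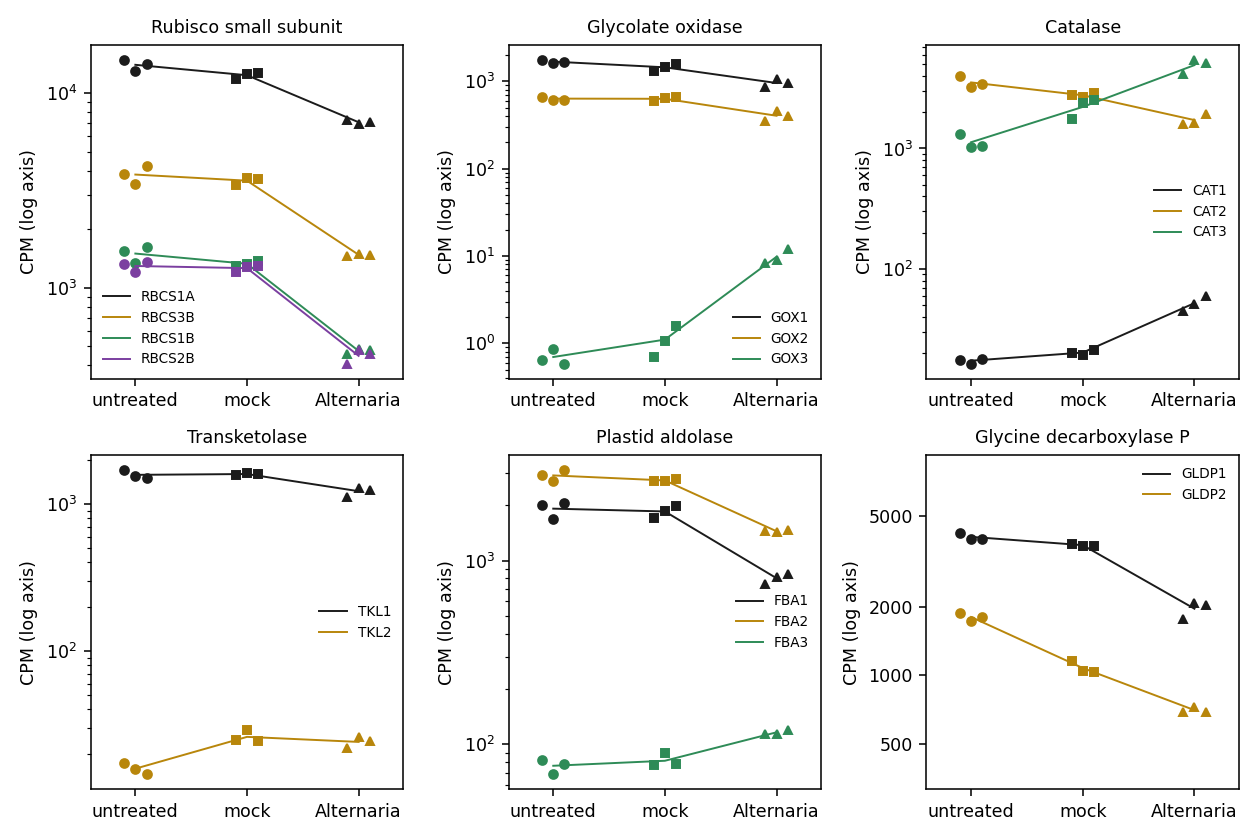
TMM-scaled CPM on a log axis for the members of 6 gene families, with 3 library points per group and lines through the group means. CAT3 passes CAT2 in Alternaria leaves, GOX3 rises while GOX1 and GOX2 fall, TKL2 steps up in mock leaves and GLDP2 steps down there.

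Glyoxylate is then turned into glycine by the aminotransferases GGT1 (glutamate) and AGT1 (serine). GGT1 (AT1G23310) stood at 3061, 2543 and 2743 CPM in the untreated libraries, 2169.8, 2259.5 and 2261 in the mock libraries and 1924, 2029.8 and 2182 in the Alternaria libraries. Untreated libraries were above all others, while mock and Alternaria libraries overlapped. GGT1 fell from untreated to mock (-0.32 ± 0.082 log2; edgeR, adjusted p = 0.0123) and was not called from mock to Alternaria (-0.12 ± 0.082 log2, 95% interval -0.30 to 0.05; edgeR, adjusted p = 0.22). AGT1 (AT2G13360), by contrast, was not called between mock and untreated and went from 1345 ± 24.96 to 873 ± 93.8 CPM in Alternaria leaves (-0.62 ± 0.083 log2; edgeR, adjusted p = 3.56e-05). HPR1 (AT1G68010), the peroxisomal hydroxypyruvate reductase, stood at 1253, 1129.6 and 1193 CPM in the untreated libraries, 1101, 1145 and 1202 in the mock libraries and 579, 664 and 613 in the Alternaria libraries. Its Alternaria libraries lay apart and it fell 1.86-fold against mock (-0.89 ± 0.076 log2; edgeR, adjusted p = 7.62e-07).

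All 5 mitochondrial genes fell in Alternaria leaves against mock, with a median of -0.93 log2, where 26.1% of all tested genes were called lower. Glycine decarboxylase is a complex of P, H, T and L proteins, and GLDP1 encodes its main P protein. GLDP1 (AT4G33010) stood at 4240.3, 3985 and 3961 CPM in the untreated libraries, 3792, 3699 and 3714 in the mock libraries and 1767, 2083 and 2043 in the Alternaria libraries. With no overlap it fell 1.901-fold against mock (-0.93 ± 0.078 log2; edgeR, adjusted p = 6.95e-07). GLDP2 (AT2G26080), the second P protein gene, stood at 1886, 1732 and 1799 CPM in the untreated libraries, 1156, 1044 and 1033 in the mock libraries and 692, 728 and 693 in the Alternaria libraries. Here the 3 groups stood in separate steps, with -0.74 ± 0.072 log2 from untreated to mock (edgeR, adjusted p = 1.96e-05) and -0.61 ± 0.072 log2 from mock to Alternaria (edgeR, adjusted p = 1.12e-05). The ratio of GLDP2 to GLDP1 CPM was therefore highest in untreated leaves at 0.444 ± 0.00980, lowest in mock leaves at 0.288 ± 0.0145, and 0.360 ± 0.0281 in Alternaria leaves.

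The T protein gene GLDT (AT1G11860) stood at 1210.2, 1173 and 1159 CPM in the untreated libraries, 1147, 1164 and 1127 in the mock libraries and 509, 553 and 481 in the Alternaria libraries. Its Alternaria libraries were all far below the mock ones, a fall of 2.23-fold against mock (-1.16 ± 0.071 log2; edgeR, adjusted p = 5.92e-08). GDCH (AT2G35370), an H protein gene, stood at 397, 372 and 399 CPM in the untreated libraries, 346, 379.9 and 387 in the mock libraries and 195, 198 and 177 in the Alternaria libraries. Its Alternaria libraries did not overlap with any other, at -0.96 ± 0.074 log2 against mock (edgeR, adjusted p = 3.11e-07). SHM1 (AT4G37930), the serine hydroxymethyltransferase that works with the complex, stood at 1876, 1813 and 1785 CPM in the untreated libraries, 1744, 1815 and 1947 in the mock libraries and 969, 1059 and 959 in the Alternaria libraries. Untreated and mock libraries of SHM1 overlapped, and Alternaria libraries lay 1.84-fold below mock (-0.88 ± 0.073 log2; edgeR, adjusted p = 5.79e-07).

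Between mock and untreated leaves the share of these genes called in either direction was near that of all genes, but nearly all calls were lower. Against untreated leaves 5 Calvin cycle genes were called lower and 1 higher, and 4 photorespiration genes lower and 0 higher, where 14.1% of all tested genes were called lower and 15.1% higher (29.3% in either direction). The Calvin cycle genes called lower were RCA, PGK1, GAPA1, TIM and SBPASE, the last 4 by 0.22 to 0.23 on the log2 scale, and TKL2 was the one called higher. In photorespiration GLDP2, CAT2, GGT1 and GLYK were called lower, GLYK by only 0.20. Medians were -0.10 for each pathway, beside -0.01 over all tested genes. Libraries did not overlap for 13 Calvin cycle and 7 photorespiration genes, where this held for 44.7% of all genes. Cell type markers moved in the same comparison, with 4 of 5 vascular, 3 of 5 epidermis and 1 of 5 guard cell markers called lower and, of 3 mesophyll markers, 1 called lower and 1 higher, and their part in these calls was not tested. The 4 small subunit genes were not called, at -0.18 for RBCS1A, -0.17 for RBCS1B, -0.04 for RBCS2B and -0.10 for RBCS3B (edgeR, smallest adjusted p = 0.0927). Under every one of 17 alternative settings or left-out libraries RCA, TKL2, GGT1 and GLDP2 of the 10 called genes kept their call, while SBPASE and GLYK kept it under 5 of them. The count of Calvin cycle genes called lower was 1 without untreated replicate 1, mock replicate 2 or mock replicate 3, 2 without mock replicate 1 or Alternaria replicate 3 and 3 without untreated replicate 2, and that of photorespiration genes was 2 without mock replicate 2.

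Against untreated leaves, Alternaria leaves had 18 of 24 Calvin cycle genes called lower and 3 higher, and 13 of 14 photorespiration genes lower and 1 higher. Of all tested genes 31.8% were called lower and 33.1% higher (64.9% in either direction). Medians were -0.91 and -0.93 log2, beside -0.04 over all genes, and a called fall of at least 2-fold was reached by 10 and 6 genes, where 12.5% of all genes reached it. Libraries did not overlap for 23 and 14 genes, where 68.6% of all genes did not. The genes higher in Alternaria leaves were FBA3, TKL2, CP12-3 and GOX3, and those not called were PGK2, CP12-1 and CP12-2. In the Calvin cycle RBCS1B fell by 1.66 ± 0.081 on the log2 scale (edgeR, adjusted p = 5.54e-09), and RBCS2B and SBPASE, at -1.53 ± 0.081 and -1.47 ± 0.079, lay within a few standard errors of it. In photorespiration GLDP2 fell too (-1.36 ± 0.073 log2; edgeR, adjusted p = 1.02e-08), as did GLDT, at -1.20 ± 0.071.

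The authors' deposited table gave the same counts against the same controls for the infected leaves: 2 Calvin cycle genes higher and 19 lower against mock, 3 and 18 against untreated, with 1 and 12, and 1 and 13, photorespiration genes. For mock against untreated the authors' deposited table listed 6 Calvin cycle and 5 photorespiration genes as lower, and 1 and 0 as higher. The share of all genes called in the deposited tables is not given here, so these counts have no background beside them.

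The promoters of RBCS2B, one of the small subunit genes that fell, and of GOX3, which rose, are shown because both hold the G-box CACGTG, a motif known from light-regulated and stress-regulated plant genes. Each sequence is the 250 bases before the annotated gene start, from RefSeq TAIR10.1, 5′ to 3′ on the gene's strand: chr5:15382072-15382321 (minus strand) for RBCS2B and chr4:10148765-10149014 (minus strand) for GOX3. Capitals mark the G-box and, in RBCS2B, the I-box GATAAG or its reverse complement, an element named from small subunit genes.
RBCS2B: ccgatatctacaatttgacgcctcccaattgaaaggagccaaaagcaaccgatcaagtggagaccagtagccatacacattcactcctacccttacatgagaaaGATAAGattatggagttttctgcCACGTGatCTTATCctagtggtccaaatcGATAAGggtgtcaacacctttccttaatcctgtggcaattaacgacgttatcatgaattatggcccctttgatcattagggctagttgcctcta
GOX3: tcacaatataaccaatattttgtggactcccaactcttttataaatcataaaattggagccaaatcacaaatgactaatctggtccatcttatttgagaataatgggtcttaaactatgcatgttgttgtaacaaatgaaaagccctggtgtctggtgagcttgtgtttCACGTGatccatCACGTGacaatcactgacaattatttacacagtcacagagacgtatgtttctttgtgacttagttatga
RBCS2B held 1 G-box, 123 bases before the start, and 3 I-boxes, 146, 115 and 94 bases before it, while GOX3 held 2 G-boxes, 81 and 69 bases before its start. Searched on both strands in the same window, the G-box was in 4 of 24 Calvin cycle and 3 of 14 photorespiration promoters, beside 6.49% of 27443 protein-coding genes. The I-box was in 5 and 1 of them, beside 12.3% of all. Other motifs were searched in the same way. The W-box was in 2 and 0 of them as TTGACC, beside 12.2% of all, and in 3 and 2 as TTGACT, beside 19.1%. The evening element AAAATATCT was in 0 and 0, beside 2.36%, and TATAAA in 11 and 5, beside 47.3%. G-boxes stood before genes that fell (RBCS2B, HCEF1, PRK and GLDP1), genes not called against mock (TKL2 and GGT1) and the gene that rose furthest (GOX3). A match is a run of letters and not a measured binding site. Each window ends at the annotated gene start, and bases inside the annotated gene were not searched. A gene without a match, such as RBCS1B, may therefore hold one further in. The annotated exons of RBCS1B span 1894 bases, beside 935 for its close relative RBCS2B.

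Genes that serve the cycle without belonging to the 38 were counted as companion lists, to be read against the 26.1% of all tested genes called lower and 29.5% called higher in Alternaria against mock. Of 12 rubisco assembly genes 9 fell and 0 rose in Alternaria against mock (median -0.57 log2), among them the chaperonin subunits CPN60B1 (-0.97 ± 0.081) and CPN60B2 (-0.85 ± 0.12), AT3G04550, annotated as like a rubisco accumulation factor (-0.79 ± 0.071), and AT5G51110 (-0.69 ± 0.066). Of 9 genes of thioredoxin control, which activates cycle enzymes in light, 4 fell and 0 rose: NTRC, a thioredoxin reductase (-0.60 ± 0.065), and the thioredoxins TRXF1 (-0.54 ± 0.080), TRXM1 (-0.30 ± 0.086) and TRXM4 (-0.23 ± 0.073). The triose phosphate exporter TPT (-0.43 ± 0.076), AT5G44520 (-0.76 ± 0.077) and AT5G64380 (-0.58 ± 0.11) fell as well, 3 of 3 in their list. Mock against untreated gave 2 lower of 12, 1 lower of 9, and 1 higher of 3, AT5G64380 (0.83 ± 0.11), where 14.1% of all tested genes were called lower and 15.1% higher.

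Of 17 cytosolic and nonphotosynthetic isoforms 5 rose and 5 fell in Alternaria against mock (median 0.03), which is near the 29.5% called higher and 26.1% called lower among all tested genes. RSW10, a ribose 5-phosphate isomerase, went from 15.8, 14.9 and 12.9 CPM in mock to 30.6, 28.9 and 38.9 in Alternaria libraries (1.17 ± 0.12 log2; edgeR, adjusted p = 2.90e-06), while RPI2, of the same activity, went from 30.6, 35.5 and 31.8 to 15.7, 17.5 and 17.7 CPM (-0.94 ± 0.12 log2; edgeR, adjusted p = 2.82e-05). Neither gene's libraries overlapped between the groups. The aldolases FBA5 (-0.82 ± 0.18) and FBA7 (-0.99 ± 0.10) also fell. Of 11 genes listed for the pentose phosphate pathway, 4 rose and 2 fell (median 0.11). In this pathway the dehydrogenases make NADPH from sugar phosphates, and transaldolase does not. Those that rose were the transaldolase gene TRA2 (0.64 ± 0.079), AT3G02360, a 6-phosphogluconate dehydrogenase family gene (0.60 ± 0.081), and the glucose 6-phosphate dehydrogenases G6PD6 (0.53 ± 0.073) and G6PD2 (0.53 ± 0.078). The pentose phosphate counts too lay near the shares over all genes. From untreated to mock, 6 isoforms rose and 1 fell, and 5 pentose phosphate genes rose and 1 fell, where 15.1% of all tested genes were called higher and 14.1% lower.

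The remaining photorespiration genes held both directions. Of 17 other enzymes 9 fell and 6 rose against mock (median -0.36), where 26.1% of all tested genes were called lower and 29.5% higher. GS2, the chloroplast glutamine synthetase that recaptures released ammonium, stood at 2114, 1830.4 and 1869 CPM in the untreated libraries, 1614, 1615 and 1601 in the mock libraries and 805, 827 and 809.6 in the Alternaria libraries. The change was -0.98 ± 0.072 log2 against mock with no overlap (edgeR, adjusted p = 2.24e-07). GLU1, the ferredoxin glutamate synthase that works with it, went from 1563 ± 70.9 to 1013 ± 43.6 CPM (-0.63 ± 0.077 log2; edgeR, adjusted p = 1.75e-05). AT1G32470 fell by 1.17, and HAOX1, a relative of the glycolate oxidases, rose from 9.27 ± 0.397 to 21.4 ± 1.202 CPM (1.21 ± 0.12 log2; edgeR, adjusted p = 3.68e-06). Of 5 transporter genes 3 fell and 1 rose: AT1G32080, listed as LrgB (-1.14 ± 0.070), the dicarboxylate transporter DiT1 (-0.60 ± 0.074) and the mitochondrial carrier BOU (-0.58 ± 0.065) fell, and AT4G22840 (0.62 ± 0.16), at 7.49 ± 0.843 CPM in Alternaria leaves, rose. From untreated to mock 2 enzymes rose and 5 fell, and 1 transporter rose and 3 fell, beside 15.1% called higher and 14.1% lower over all tested genes.

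Scaling by the upper quartile instead of TMM lowered the median log2 change of all genes by 0.17 in Alternaria against mock and by 0.20 in Alternaria against untreated, with 4937 genes then called higher and 8114 lower in the first comparison and 5549 and 9234 in the second. All 34 calls of these genes in Alternaria against mock kept their direction and call under that scaling, and PGK2, TKL2 and GGT1 were then also called lower (-0.17, -0.29 and -0.30 log2), values that include the common shift of -0.17.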

How the data were processed

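Polyadenylated RNA was sequenced from 9 libraries, 3 per group; per the labels' protocols 3 µg of total RNA entered poly(A) selection and ScriptSeq v2 libraries of 250 to 650 bp. Per the submitters' processing notes, the tools were FastQC, TopHat2 2.0.12 on the TAIR10 build, HTSeq for counting and DESeq2 1.8.2 for comparisons. The annotation release and any use of strand in counting were not stated there. The authors deposited raw counts per gene, 1 file per library, which all tests here used. The comparison tables the authors deposited give log2 fold changes and, per the file headers, p-values and adjusted p-values of DESeq2. They were read for the calls of the 38 genes.

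Lines that name no gene, 7.73 to 11.2% of the counts in a library, were not used. Genes were filtered with filterByExpr at a minimum count of 10, scaled by TMM and modelled in edgeR 4.0.16 (R 4.3.3), with all 9 libraries in 1 model (6 residual degrees of freedom), quasi-likelihood F tests and Benjamini-Hochberg adjustment at 0.05 over 22019 genes. The standard error of a log2 change was taken as its size over the root of F. The procedure was tested on simulated counts, where the share of false calls was above the nominal threshold in all 3 comparisons and small changes were often missed. Ratios within a family were compared with two-sided exact permutation tests. Replicates of a group differed by more than counting noise, with a chi-square per degree of freedom of 7.40 to 16.8. Precision is limited by 3 libraries per group. The edgeR p-values weigh a change against a spread between libraries that is estimated partly from other genes.

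Gene positions, names and sequences came from RefSeq TAIR10.1, whereas the counts carry no coordinates and per the labels rest on TAIR10. Exon lengths are unions of annotated exons. Genes with values in every library were those of a fixed set of pathway steps, those with the largest changes at 5 CPM or more, and those that moved against their pathway or were not called, and up to 4 called genes per companion list with the largest change. The members, lists and this rule were chosen with earlier results of these data known. Alternatives were RLE and upper-quartile scaling, no filter, a filter of 1 CPM in 3 libraries, DESeq2 1.42.0, fits of the 6 libraries compared, a replicate block, fits without organelle genes, and fits without 1 library. Tables and figures used Python 3.11.15, pandas 2.3.3, numpy 2.4.6, biopython 1.88 and matplotlib 3.10.9.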

Additional observations from a re-analysis of the deposited data

How the results depend on the processing

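Every call in the Alternaria comparisons was kept under all 17 alternatives, 34 genes against mock and 35 against untreated, while 4 of 10 calls between mock and untreated were. With 3 libraries per group small changes between mock and untreated are not resolved. Depth limits CP12-3, PGLP1 and GOX3, which had few reads. Upper-quartile scaling shifted the median of all genes. The cause of the changes listed here was not tested.

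The number of Calvin cycle genes lower in mock than in untreated leaves, 5, was 3 with RLE scaling, 1 with no filter on low counts and 2 with DESeq2, and it ranged from 1 (without untreated replicate 1, mock replicate 2 or mock replicate 3) to 5 with 1 library left out. Photorespiration genes lower there, 4, ranged from 2 to 4, and those higher, 0, from 0 to 1 (GOX3, without mock replicate 1). Upper-quartile scaling moved the medians to -0.91 (Calvin cycle) and -0.87 (photorespiration) for Alternaria against mock, and to -1.11 and -1.12 for Alternaria against untreated. With 1 library left out the photorespiration median against mock ranged from -0.75 to -0.67.

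The replicate numbers of the labels did not pair the libraries: same-numbered libraries of different groups had correlations of their deviations from group means between -0.0988 and 0.0844. With the number as a replicate block 6337 genes were called higher and 5603 lower in Alternaria against mock (6489 and 5751 without it), 3145 and 2876 in mock against untreated (3331 and 3110), and 7166 and 6776 in Alternaria against untreated (7287 and 7001), and 2 Calvin cycle genes in place of 5 were called lower in mock than in untreated leaves. The block ended no call in the Alternaria comparisons, and CP12-2 was then also called lower against untreated leaves.

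Signs that turned belonged to changes near 0 that were not called with TMM scaling. With upper-quartile scaling PGK2 was then called lower, and its value and that of CP12-2 moved by about the shift of all genes (-0.17). Which scaling is closer to the true levels was not tested. In Alternaria against mock PGK2 became -0.1683 with upper-quartile scaling, -0.0127 with the 1 CPM filter, -0.0114 with the 6 libraries compared, and -0.0169 to 0.0255 with 1 library left out, and CP12-2 became -0.1436 with upper-quartile scaling and -0.1232 to 0.1878. In mock against untreated GOX2 became 2e-04 with RLE, 0.0230 with no filter, 0.0221 with DESeq2 and -0.0314 to 0.0421 with 1 library left out. TKL1 became -0.0011 and -9e-04, and SHM1 -0.0126 and -0.0118, with upper-quartile scaling and the 1 CPM filter, with ranges of -0.0148 to 0.0778 and -0.0330 to 0.0549. GAPA2 became 0.0196 with no filter and 0.0189 with DESeq2, and AGT1 5e-04 with no filter, with ranges of -0.0447 to 0.0231 and -0.0577 to 0.0109. Leaving out a library also turned CP12-3 (-0.2666 to 0.1819), FBA1 (-0.1319 to 0.0197), HCEF1 (-0.0544 to 0.0023) and RBCS2B (-0.0854 to 0.0029).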
